A study of Mus musculus with 9 samples.

Results

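The genes described here are 10 astrocyte genes, taken as a named list from the 21627 protein-coding genes on the autosomes and chromosome X. They are Slc1a2, Slc1a3, Glul, Aqp4, Gja1, Gfap, S100b, Aldoc, Aldh1l1 and Sox9. Whole-genome bisulfite sequencing gave the CpG methylation of each gene in punches of the nucleus accumbens, a part of the ventral striatum. The list follows cell type markers and no methylation threshold, although earlier results of these data were known when it was chosen. All 10 genes passed the minimum of calls at the start, over the body and in at least 12 tiles.

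Astrocytes are glial cells that clear glutamate from synapses, buffer potassium and water, and pass metabolites to neurons. Their marker genes are transcribed little or not at all in most neurons, and some of them lose DNA methylation as neural precursors become able to form astrocytes. In a methylation map, a gene start that lies in a CpG island is usually unmethylated in every cell type, whereas a CpG-poor start or a regulatory stretch inside a gene can differ between cell types. A punch holds neurons, astrocytes, oligodendrocytes and microglia together, so an intermediate level can be a mixture of cells with low and high levels. A different share of astrocytes in a punch and a different level per astrocyte cannot be told apart here.

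The mice were male C57BL/6J, aged 8 weeks, and the stressor was chronic social defeat by an aggressive CD1 male on 10 days. Of the libraries, 5 are labelled Control, with the numbers 2, 3, 4, 5 and 8, and 4 are labelled Susceptible, with the numbers 2, 3, 6 and 7. The treatment text is the same for all 9 libraries, and neither the handling of Control mice nor the scoring of susceptibility is stated in it. The question was whether CpG methylation differs between the groups, and since nothing beyond the labels says that the libraries are separate animals, p-values measure the spread between these libraries.

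The deposited files listed 313475624 to 570984634 CpG calls per library, and the fewest calls in a Susceptible library exceeded the most in a Control library. The level of a CpG was the share of calls read as C, in which hydroxymethylated cytosines are included. The autosomal level lay between 74.5% in Susceptible 7 and 77.1% in Control 5. Disagreement between the strands of a CpG was 18.0 and 19.2 times its binomial value in Control 5 and Control 8, and 2.36 to 5.95 times in the other libraries. Susceptible 7, Control 5 and Control 8 therefore stand apart from the rest, and several results that rest on them are given with and without them.

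The starts of these genes differ first in their sequence. RefSeq promoter sequences (assembly GRCm38.p6, from 250 bases before to 50 bases after a start) were found for 8 of the 10 genes. Those of 6 genes are shown because they span the range from an unmethylated to a methylated start. They are printed 5′ to 3′ in the direction of the gene, with every CpG in capitals. Glul lies at chr1:153899679-153899978 (+), Gja1 at chr10:56377050-56377349 (+), Aldoc at chr11:78322823-78323122 (+), S100b at chr10:76253586-76253885 (+), Aldh1l1 at chr6:90550543-90550842 (+, from a start 25 bp inside the gene) and Gfap at chr11:102897151-102897450 (-).
Glul: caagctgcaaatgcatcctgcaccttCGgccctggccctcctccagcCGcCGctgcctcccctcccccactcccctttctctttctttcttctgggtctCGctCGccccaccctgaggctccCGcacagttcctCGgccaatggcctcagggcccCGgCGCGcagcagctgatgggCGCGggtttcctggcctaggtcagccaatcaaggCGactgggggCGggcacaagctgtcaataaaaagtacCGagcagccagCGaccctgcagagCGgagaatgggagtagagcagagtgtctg
Gja1: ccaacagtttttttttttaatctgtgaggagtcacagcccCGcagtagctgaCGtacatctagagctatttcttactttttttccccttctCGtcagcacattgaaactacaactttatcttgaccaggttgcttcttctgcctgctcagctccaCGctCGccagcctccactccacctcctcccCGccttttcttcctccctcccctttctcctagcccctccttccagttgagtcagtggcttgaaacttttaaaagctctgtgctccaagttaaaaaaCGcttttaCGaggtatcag
Aldoc: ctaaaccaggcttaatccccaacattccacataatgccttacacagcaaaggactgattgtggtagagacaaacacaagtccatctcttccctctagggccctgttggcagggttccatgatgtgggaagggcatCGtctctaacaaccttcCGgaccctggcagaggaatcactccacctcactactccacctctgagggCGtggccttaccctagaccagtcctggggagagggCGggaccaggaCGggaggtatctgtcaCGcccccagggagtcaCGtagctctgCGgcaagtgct
S100b: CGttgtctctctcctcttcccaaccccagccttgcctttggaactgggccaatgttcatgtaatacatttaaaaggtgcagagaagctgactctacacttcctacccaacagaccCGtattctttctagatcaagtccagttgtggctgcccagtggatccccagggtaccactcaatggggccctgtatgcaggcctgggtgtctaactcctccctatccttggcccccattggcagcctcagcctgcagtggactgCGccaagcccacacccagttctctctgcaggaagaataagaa
Aldh1l1: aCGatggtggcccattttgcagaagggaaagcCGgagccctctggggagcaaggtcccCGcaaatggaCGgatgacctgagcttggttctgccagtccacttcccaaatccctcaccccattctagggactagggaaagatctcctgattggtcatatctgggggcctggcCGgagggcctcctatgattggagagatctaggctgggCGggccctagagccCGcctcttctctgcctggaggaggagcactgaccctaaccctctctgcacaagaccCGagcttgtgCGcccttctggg
Gfap: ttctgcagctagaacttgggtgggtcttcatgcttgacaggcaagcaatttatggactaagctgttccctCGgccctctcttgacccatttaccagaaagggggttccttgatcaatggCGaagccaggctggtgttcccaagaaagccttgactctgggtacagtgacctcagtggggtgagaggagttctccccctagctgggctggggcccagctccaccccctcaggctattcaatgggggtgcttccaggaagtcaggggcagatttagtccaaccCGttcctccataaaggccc

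The Glul sequence holds 17 CpGs, more than 68.6% of all RefSeq promoters, and its calls averaged 1.94% methylated over the 9 libraries. Gfap and S100b hold 3 CpGs each, and only 23.3% of promoters hold fewer. The 3 Gfap CpGs, at positions -180, -131 and 31 from the start, averaged 62.2, 84.1 and 60.3%. In S100b the level was higher towards the gene, from 2.55% at -250 through 10.2% at -135 to 60.5% at position 8. In Gja1 it was lower towards the gene, from 43.2 and 54.9% at -210 and -198 to 1.04 and 2.5% at positions 31 and 39, where 6 libraries had calls. The 9 Aldh1l1 CpGs lay between 21.4% at -79 and 72.7% at 38. In Aldoc the mean over the 300 bases was 17%, with a range of 5.80 to 62.1% between libraries. Some but not all Aldoc CpGs were far higher in Control 8 than in most libraries. At -98 it read 100%, Control 5 read 66.7%, and the other 7 libraries read 0 to 12.2%. At -49 and -3, however, Control 8 read 0%. The fewest calls at a single Aldoc CpG were 10, so one library's value there is coarse.

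A STAT-type element (TTCNNNGAA, which reads the same on both strands) stands in 8.30% of 32851 RefSeq promoters and was found in Gfap at -2, in Slc1a3 at -96 and at 2 places in the sequence of the inner Aldoc start. The nuclear factor I element TTGGCA, searched on both strands and present in 14.1% of promoters, was found in S100b at -19 and in Aldoc at -146. The SOX core ACAAT, on either strand in 31.0% of promoters, was found on the reverse strand in Slc1a3 and Aldoc. These matches describe the letters in these windows only.

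The level at the start was lower in genes with more CpGs there. The start window covers 1 kb on each side of the gene start. Averaged over 9 libraries it read 2.56% in Glul, 2.69% in Sox9, 11.7% in Slc1a2, 11.9% in Slc1a3, 27.5% in Aldoc, 30.1% in Gja1, 55.5% in Aldh1l1, 61.3% in S100b, 83.2% in Gfap and 90.7% in Aqp4. Glul and Sox9, at the low end, held up to 116 and 136 CpGs, whereas Aqp4 held 3 or 4 and S100b at most 14. Gfap departs from this order with 40 to 44 CpGs and a high level. Across the 10 genes the correlation between CpG number and level was -0.75 (Pearson) and -0.82 (Spearman), a description over genes that share libraries. Of the 10 start windows 3 lay between 20 and 60%, against 9.99% of the 19324 start windows tested.

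**Figure D1:**
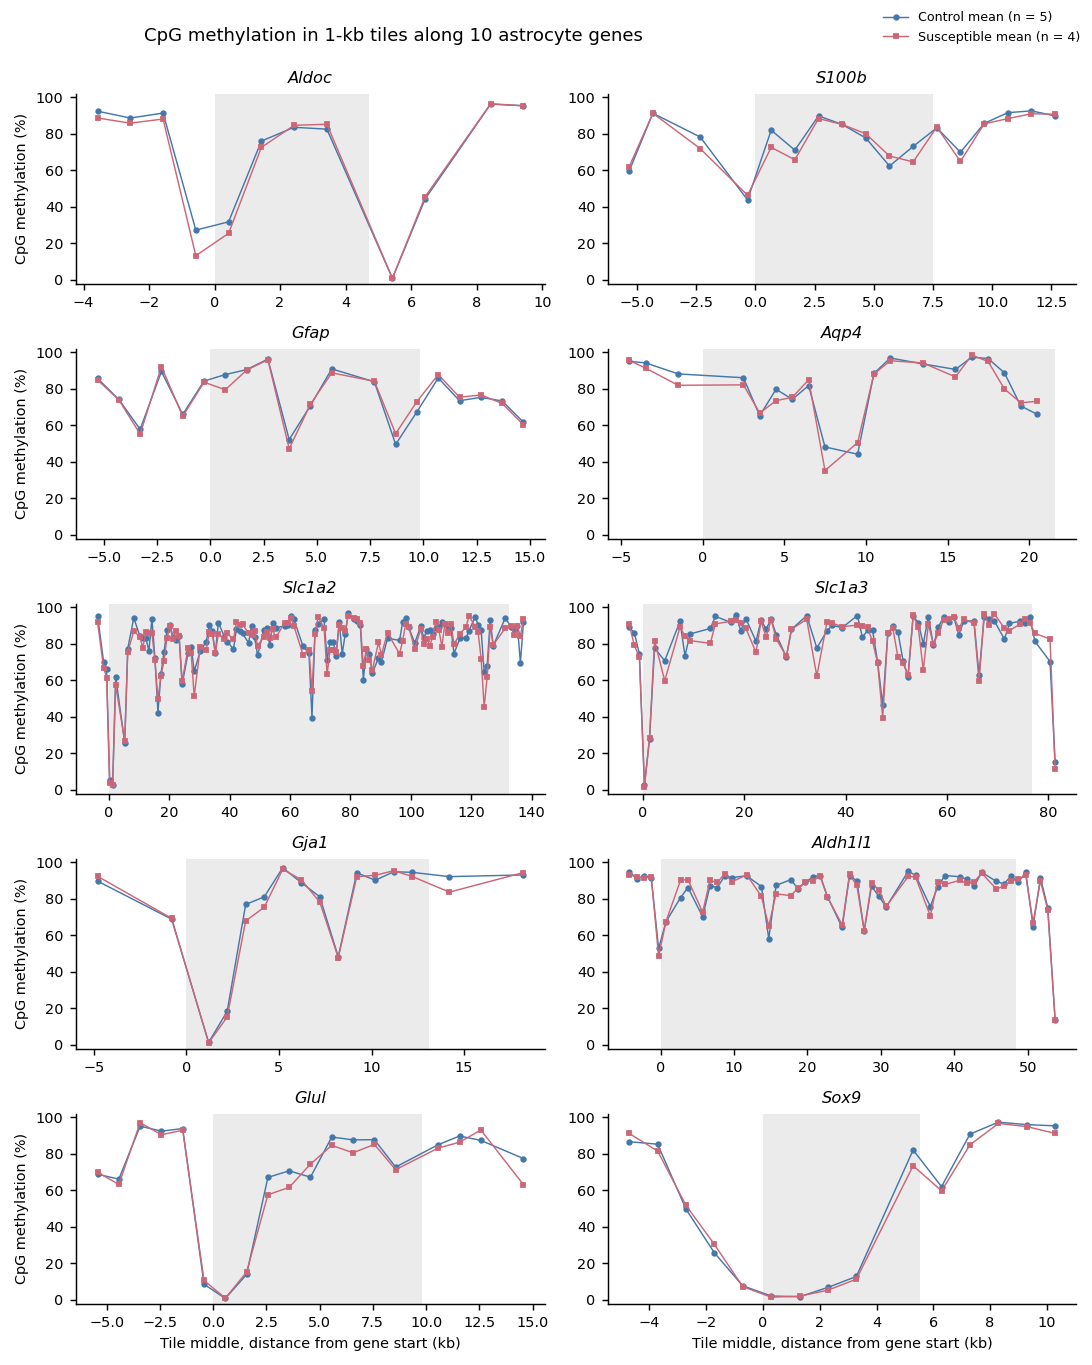
CpG methylation (%) in 1-kb tiles against the distance of the tile's middle from the gene start (kb), for 10 genes, with the Control mean (5 libraries) in blue, the Susceptible mean (4 libraries) in red and the gene shaded. Glul, Sox9, Slc1a2, Slc1a3 and Gja1 drop below 3% just inside the gene, while the lowest tiles of Gfap (49.99%) and Aqp4 (42.5%) lie 3700 and 7482 bp inside it; the dip after Aldoc (0.916%) is at the neighbouring gene Pigs.

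Glutamate handling is carried by 3 of the genes. Slc1a2 encodes the glutamate transporter GLT-1, Slc1a3 encodes the transporter GLAST, and Glul encodes glutamine synthetase, which turns glutamate into glutamine. All 3 were almost unmethylated just inside the start. Slc1a2 (chr2:102658239-102790784, +) read 4.67% in the tile centred 261 bp inside the gene and 2.77% in the next, its lowest. That lowest tile also overlaps the annotated lncRNA LOC115489466. Slc1a2 read 59.96% in the third tile and averaged 79.7% over its body, which is the gene beyond the first kb. The start window of Slc1a2 read 8.79, 9.33, 9.63, 19 and 18.1% in the Control libraries (2, 3, 4, 5 and 8 in this order). It was 12.5, 11.2, 9.56 and 6.91% in the Susceptible ones (2, 3, 6 and 7). Control 5 and Control 8 were the highest and Susceptible 7 was the lowest, and the groups overlapped.

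Slc1a3 (chr15:8634124-8710807, -) had a single tile below 20%, at 2.19%, centred 307 bp inside the gene. The tile before it, at -693 bp, read 73.8% and overlaps the lncRNA Gm31340. In the same library order its start window read 13.9, 9.54, 19, 13 and 14.7% in Control, against 9.43, 10.9, 12.9 and 4.14% in Susceptible, on 464 to 1484 calls. The group means were 14 ± 3.38% (SD, n = 5) and 9.34 ± 3.74% (SD, n = 4). Susceptible 7 was the lowest and Control 4 the highest, and Control 3 lay among the Susceptible values. The difference of -4.67 points (SE 2.41) had a quasi-binomial adjusted p of 0.932 and an unadjusted exact permutation p of 0.0794. It was -2.93 points without Susceptible 7, -1.97 in a window of 500 bp on each side and 1.5 when CpGs listed in all 9 libraries were weighted equally.

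Glul (chr1:153899929-153909723, +) held 3 consecutive tiles below 20%, at 9.48, 0.872 and 14.5%, and the tile before them read 93.4%. The lowest of them, which overlaps the end of Mir8114, read between 0.0369% in Control 8 and 1.36% in Control 5 on at least 1473 calls. Its start window was the only one of the 10 with a higher Susceptible mean, by 0.11 points, and that sign turned when Control 3 or Control 8 was left out. The Glul body was one of the most divergent between libraries: Control read 70.9, 72.6, 65.7, 67.7 and 70.2%, and Susceptible read 70.3, 70.8, 69.8 and 57.0%. Susceptible 7 lay below all other libraries, whereas the other 3 Susceptible libraries lay inside the Control range.

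Water and small-molecule exchange rest on Aqp4, the water channel of astrocyte endfeet, and Gja1, which encodes the gap-junction protein connexin 43. Aqp4 (chr18:15389394-15410982) was methylated at its start and lower inside the gene. Its start was taken as the upper end of the gene, the end with more CpGs (5 against 4), because no strand was given; both ends read high, at 90.7 and 89.3%. The start window held only 66 to 109 calls per library. The lowest tile, centred 7482 bp inside, averaged 42.5%, and the tile at 9482 bp averaged 47.0%. The annotated lncRNA A830021F12Rik covers the tile at 9482 bp and overlaps part of the lowest tile.

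The lowest Aqp4 tile read 51.0, 35.9, 65.4, 46.5 and 42.2% in Control, against 39.2, 33.5, 34.9 and 33.5% in Susceptible. The Control values spread more widely than the Susceptible values (SD 11.1 and 2.68 points), and Control 3 lay below Susceptible 2. The difference was -12.9 points (SE 5.14), with an unadjusted quasi-binomial p of 0.0217, an adjusted p of 0.997 over 1041809 tiles and an unadjusted exact permutation p of 0.0397. It thus did not pass the threshold, and the tile rests on 43 to 429 calls and 3 to 13 CpGs per library. The tile at 9482 bp differed the other way, with means of 44.2 ± 5.35% (SD, n = 5) in Control, against 50.5 ± 10.6% (SD, n = 4) in Susceptible.

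Gja1 (chr10:56377300-56390419, +) read 69.1% in the tile before its start, 1.26% in the tile centred 1200 bp inside and 17% in the next. A further tile at 8200 bp, inside an otherwise methylated stretch, read 48.1%. The Gja1 body gave the smallest unadjusted p among the 10 bodies: Control read 66.0, 72.5, 72.2, 65.4 and 70.2% and Susceptible read 63.0, 64.2, 65.6 and 65.8%. Control 5 lay below Susceptible 6 and Susceptible 7, and Control 2 lay just above Susceptible 7. The means were 69.3 ± 3.37% (SD, n = 5) and 64.6 ± 1.31% (SD, n = 4). The difference of -4.63 points (SE 1.65) had an unadjusted quasi-binomial p of 0.0155, an adjusted p of 1 over 18926 bodies and an unadjusted exact permutation p of 0.0556. It ranged from -5.60 to -3.81 when single libraries were left out and became 0.83 when CpGs listed in all 9 libraries were weighted equally.

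Gfap encodes an intermediate filament protein and S100b a calcium-binding protein. Gfap (chr11:102887336-102897200, -) was high on both sides of its start, at 84.0 and 84.1%, and its lowest tile lay 3700 bp inside. That tile holds 45 to 51 CpGs and averaged 49.99%, with 54.4, 46.8, 59.7, 61.5 and 38.7% in Control, against 50.6, 52.5, 46.0 and 39.6% in Susceptible on at least 1381 calls. Control 8 and Susceptible 7 were the lowest there and Control 5 and Control 4 the highest. Other Gfap tiles between 20 and 60% lay at 8700 bp (52.2%) and, before the start, at -3300 bp (56.7%). The start window read 86.1, 82.7, 80.6, 94.3 and 84.7% in Control, against 86.5, 83.9, 83.1 and 66.7% in Susceptible, so that Susceptible 7 alone lay below all Control libraries. The group difference of -5.64 points was -1.19 without Susceptible 7.

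S100b (chr10:76253836-76261319, +) had its lowest tile, 45%, just before the start at -336 bp, with 5 CpGs. Its start window read 48.5, 61.6, 63.8, 65.8 and 75.0% in Control, against 67.1, 60.3, 63.1 and 46.8% in Susceptible. Susceptible 7 and Control 2 were the lowest and Control 8 the highest, and the group difference of -3.61 points (SE 6.13) was smaller than either group's SD. Without Susceptible 7 it was 0.56 points.

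Aldoc, the brain form of the glycolytic enzyme aldolase, and Aldh1l1, a folate-metabolising dehydrogenase, are the metabolic members. Aldoc (chr11:78323073-78327781, +) was low only around its start, at 21.1% in the tile centred at -573 bp and 29.0% in the next, and it read 74.5% in the tile after that. The lowest tile holds 4 CpGs and overlaps the end of the neighbouring gene Spag5. It read 20.4, 10.7, 15.7, 65.0 and 24.7% in Control, against 16.2, 18.7, 12.9 and 5.41% in Susceptible, so that Control 5 stood alone. The group difference in that tile was -14.0 points, and -4.57 without Control 5. The Aldoc start window had the largest group difference of the 10, -7.67 points (SE 4.91), with an adjusted quasi-binomial p of 0.932 and an unadjusted exact permutation p of 0.246. It read 26.5, 20.4, 24.9, 39.4 and 43.3% in Control, against 18.5, 28.8, 22.8 and 22.8% in Susceptible, and apart from Control 5 and Control 8 the Control libraries lay inside the Susceptible range. The difference was -4.55 points without Control 8 and -0.69 without both.

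Aldh1l1 (chr6:90550768-90599171, +) had a single tile under 60% in or before the gene, at -268 bp, which averaged 50.9%. The start window read 55.1, 57.2, 59.2, 54.4 and 63.1% in Control, against 53.9, 60.2, 53.6 and 42.6% in Susceptible. Susceptible 7 was the lowest by a wide gap, and Susceptible 3 lay above 4 of 5 Control libraries. The group difference of -5.24 points was -1.92 without Susceptible 7. The Aldh1l1 body was the most methylated of the 10, at 86.9%.

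Sox9, a transcription factor needed for glial fate, had the broadest low region. Sox9 (chr11:112782210-112787757, taken as + because the lower end holds 141 CpGs against 23) read below 20% in 5 consecutive tiles, from 7.48% at -710 bp through 1.85% at 290 and 1290 bp to 12.2% at 3290 bp. Its body averaged 12.7%, and only 1.92% of the 18926 gene bodies tested were lower. That body read 15, 14.7, 18.9, 13 and 8.59% in Control, against 8.18, 11.2, 12.8 and 12.4% in Susceptible. Control 8 lay among the Susceptible libraries, and the difference of -2.90 points (SE 1.97) had an adjusted quasi-binomial p of 1. It was -5.07 points without Control 5 and Control 8, -1.68 without Control 4, -1.92 without Susceptible 2 and -0.76 with CpGs listed in all 9 libraries. The other 9 bodies averaged 67.2% in Gja1 to 86.9% in Aldh1l1.

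Inside the genes, dips far from the start were about as common as in other genes. Of 240 tiles in these genes over 2 kb from any start, 13 (5.42%) lay between 20 and 60%, against 27444 of 497930 (5.51%) over all protein-coding genes. Slc1a2 held 7 of them over its 132546 bp, Gfap and Aqp4 2 each, and Slc1a3 and Gja1 1 each. The dip in Slc1a3 lay 47307 bp inside the gene at 43.2%. The deepest in Slc1a2 lay 5261 bp inside at 26.2%.

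**Figure D2:**
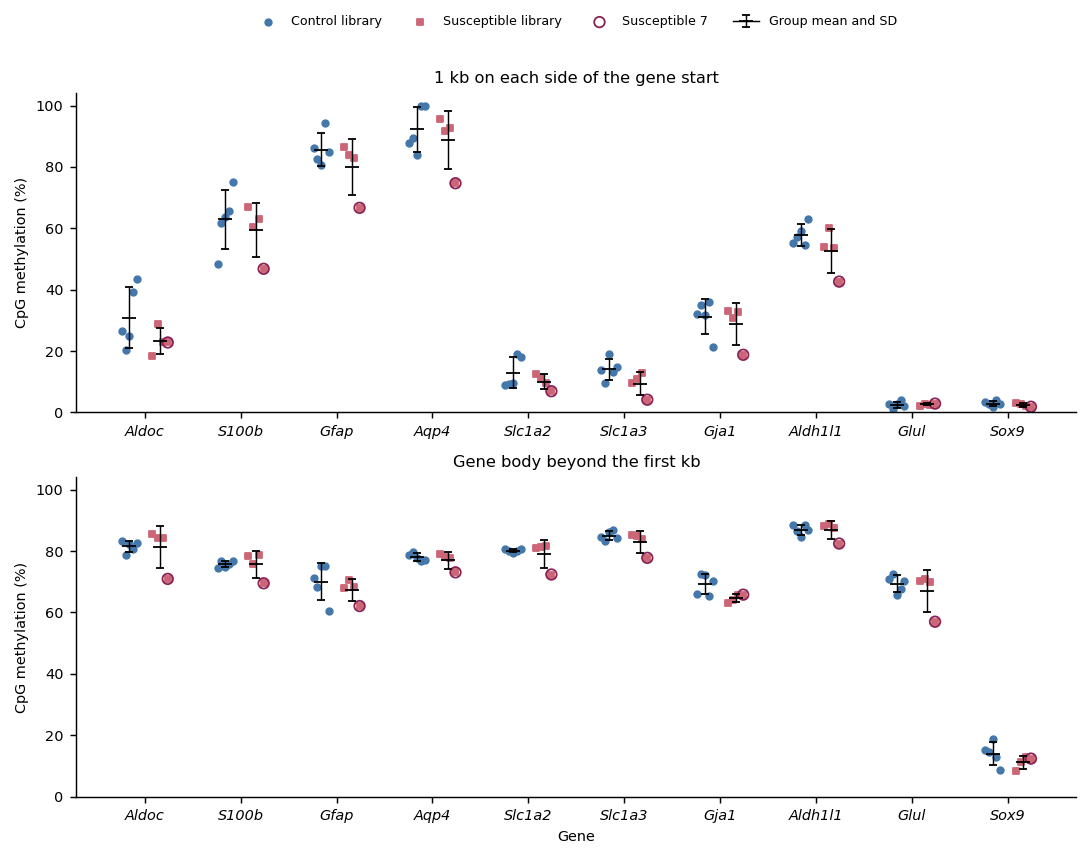
CpG methylation (%) of each library at the start window (top) and over the gene body (bottom) of 10 genes, with Control in blue circles, Susceptible in red squares, Susceptible 7 ringed, and group mean and SD in black. The groups overlap for every gene, and Susceptible 7 is the lowest of 9 libraries in 8 start windows and 7 bodies.

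No member differed between Control and Susceptible past the threshold. At start windows 0 of 10 had an adjusted p under 0.05 in the quasi-binomial test (0% of all start windows), 0 had an unadjusted p under 0.05 (4.90% of all) and in 0 did the groups not overlap (1.99% of all). The Susceptible mean was lower in 9 of the 10, against 52.0% of all start windows, and the median difference was -3.61 points against -0.06 over all. All start windows had a lower median level than the members, 10.3% against 28.8%, which leaves less room for a difference in points. Over bodies 0 of 10 passed (0% of all bodies), 1 of 10, Gja1, had an unadjusted p under 0.05 (4.02% of all), and 0 did not overlap (1.43% of all). The Susceptible mean was lower in 10 of 10 bodies, against 53.4% of all, with a median difference of -1.55 points against -0.10. limma on logit levels also called 0 start windows and 0 bodies, with 772 and 733 at an unadjusted p under 0.05, where the quasi-binomial test had 946 and 761.

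The count of lower genes and the size of the differences depended on single libraries. Without Susceptible 7 the Susceptible mean was lower in 6 of 10 start windows and 4 of 10 bodies. Start window differences of Gfap, S100b, Aqp4 and Gja1 were then -1.19, 0.56, 1.05 and 0.95 points, while that of Aldoc stayed at -7.52. Body differences of Aldoc, S100b, Slc1a2, Aldh1l1, Glul and Aqp4 turned to 3.25, 1.94, 1.20, 1.24, 0.90 and 0.38 points. The medians of -3.61 and -1.55 points therefore depend on Susceptible 7 as well. Without Control 5 and Control 8 the Susceptible mean was lower in 6 start windows and 8 bodies. Leaving out Susceptible 7 also moved the count of all bodies at an unadjusted p under 0.05 from 761 to 1181.

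Among 338 tiles from 5 kb before to 5 kb after the genes, 0 were called (0% of 1041809 tiles), and in 0 did the groups not overlap (1.56% of all tiles). At an unadjusted quasi-binomial p under 0.05 there were 13 (3.85%, against 4.38% of all tiles), 11 of them lower and 2 higher in Susceptible. The Susceptible mean was lower in 199 (58.9%, against 52.4% of all). limma on logit levels gave 33856 of all tiles at that threshold against 45605, and called 0. Leaving out Control 4 gave 1 called tile in the genome, and leaving out Susceptible 6 lowered the unadjusted count to 29685.

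Of those 13 tiles, Slc1a2 and Slc1a3 held 9. They are the longest of the genes, with 109 and 63 of the 338 tiles, and 4.38% of all tiles had such a p. The Slc1a2 tile at 123261 bp had the smallest p (0.0085, adjusted 0.997 in the quasi-binomial test). It read 77.2, 86.8, 88.2, 92.3 and 93.3% in Control, against 76.8, 85.1, 63.5 and 62.3% in Susceptible, so Susceptible 6 and Susceptible 7 were the low ones. The Slc1a2 tile at 67261 bp was higher in Susceptible by 14.4 points (SE 7.07), at 39.6 ± 9.84% (SD, n = 5) and 54.0 ± 11.1% (SD, n = 4). In Slc1a3 all 4 such tiles were lower in Susceptible; the 3 of smallest p, at 22307, 20307 and 72307 bp, differed by -6.03, -5.34 and -3.95 points. Their groups overlapped, as in all 13 tiles. The remaining tiles of smallest p were lower in Susceptible as well: Slc1a2 at 110261 bp by -13.3 points, Aqp4 at 7482 and 18482 bp by -12.9 and -8.82, and, beyond the gene end, Gja1 at 14200 bp by -8.48 and Glul at 14571 bp by -14.3.

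**Figure D3:**
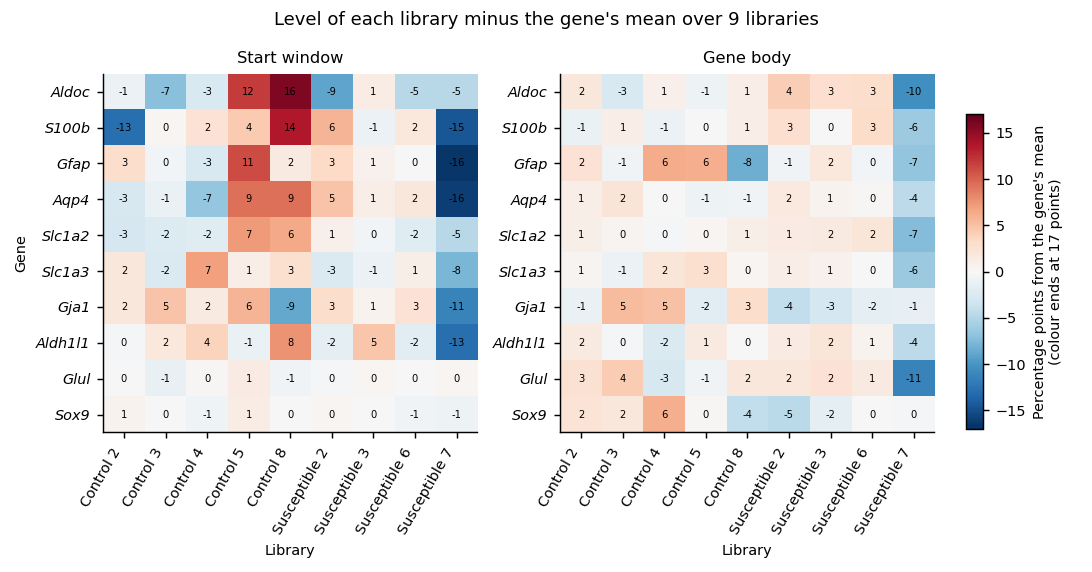
Level of each of 9 libraries minus the gene's mean over the libraries, in percentage points, for the start window (left) and body (right) of 10 genes. Blue columns mark Susceptible 7, and red cells at the start windows gather in Control 5 and Control 8.

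Between libraries the clearest pattern lay within the groups. Susceptible 7 was the lowest of 9 libraries in 8 of 10 start windows and 7 of 10 bodies, whereas it was the lowest in 15.1 and 33.2% of all start windows and bodies. The median deviation of the 10 genes from their own means was -9.57 points at start windows and -6.28 over bodies in this library, against -0.36 and -1.26 over all genes. Median levels also differed, at 28.8% for the 10 start windows against 10.3% for all, and 76.6% for the 10 bodies against 84.3%. A low level leaves less room to fall, which applies to all genes at start windows but to the 10 genes over bodies. No comparison at matched levels was made. In Susceptible 7 the start windows of Glul and Aldoc were the 2 that were not the lowest. At the other end, Control 5 was the highest in 6 start windows, level with Control 8 at 100% in Aqp4, and Control 8 was the highest in 3 more. Over all genes these 2 libraries were the highest in 25.9 and 19.9% of start windows. The part of library quality or of cell make-up in this pattern was not tested.

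Gene lists for other cells and for further astrocyte genes were read in the same libraries. Of 24 other astrocyte genes, among them the potassium channel gene Kcnj10, 18 had their lowest body in Susceptible 7, against 33.2% of all bodies, and their median deviation there was -3.01 points. At start windows only 4 of these 24 genes were lowest in Susceptible 7 (15.1% of all start windows were), with a median of -2.29 points. Of 14 regulators of astrocyte fate, such as Nfia, Sox2 and Stat3, 7 had their lowest body there, with a median of -3.08. Oligodendrocyte, microglia, general neuron and cortical neuron genes had medians of -3.32, -2.72, -1.85 and -2.13 points in Susceptible 7. It was their lowest library in 6 of 10, 6 of 10, 4 of 10 and 5 of 8 bodies. Bodies of 10 striatal neuron genes went the other way in Susceptible 7, with a median of 7.25 points. Their medians were 5.56 in Susceptible 6 and -4.27 in Control 8. In those 2 libraries the 10 astrocyte genes stood at 0.38 and 0.61, and the 24 other astrocyte genes at 0.59 and 0.19. The part of these cell types in the result was not tested.

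**Figure D4:**
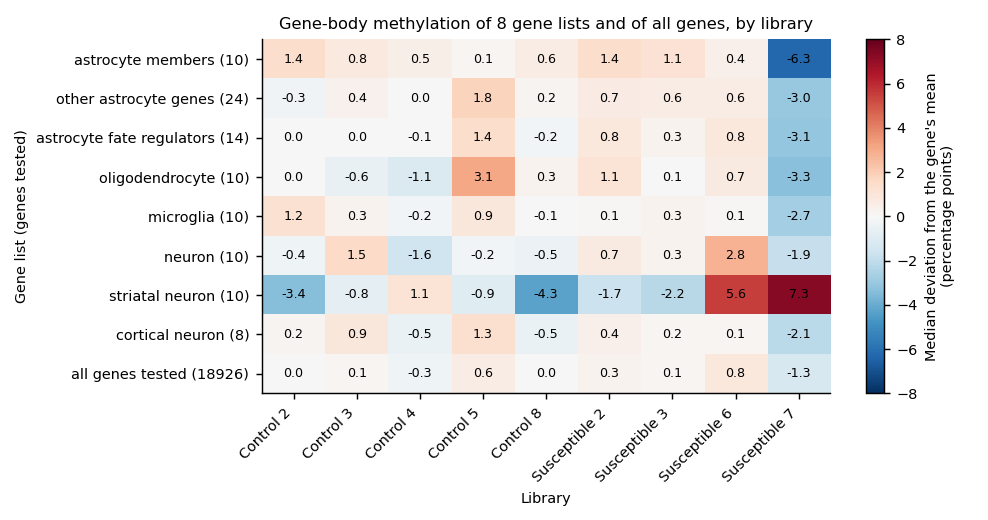
Median deviation of gene-body methylation from each gene's mean over 9 libraries (percentage points), for 8 gene lists and all 18926 bodies tested, by library. In Susceptible 7 the 10 astrocyte genes stand at -6.28 and the striatal neuron genes at 7.25, while all genes stand at -1.26.

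None of the other astrocyte genes or fate regulators was called either. At start windows 2 of 24 other astrocyte genes, the connexin gene Gjb6 and the GABA transporter gene Slc6a11, had an unadjusted quasi-binomial p under 0.05, and 0 of 14 fate regulators did (4.90% of all start windows). Over bodies 1 of the 24, the bicarbonate transporter gene Slc4a4, had such a p (4.02% of all bodies) and was higher in Susceptible by 2.12 points, and 0 of the 14 fate regulators did. The groups did not overlap in 1 of the 24 bodies, Slc39a12, a zinc transporter gene whose difference was -1.45 points (1.43% of all bodies), and in 1 of the 14 fate regulator start windows, Smad1 (1.99% of all start windows); Slc4a4 and Slc39a12 were named after their values were seen. Gjb6 read 18.9 ± 2.46% (SD, n = 5) in Control, against 14.8 ± 1.37% (SD, n = 4) in Susceptible, with an adjusted p of 0.932. Slc6a11 read 22.6 ± 0.98% (SD, n = 5) and 19.1 ± 3.15% (SD, n = 4). Also among the genes of smallest p in these lists were the oligodendrocyte gene Mobp and the fate regulator Smad1, with differences of -8.81 and 0.62 points. The Susceptible mean was lower at 12 of 24 start windows of other astrocyte genes and at 6 of 14 of fate regulators, against 52.0% of all. It was lower over 17 of 24 and 10 of 14 bodies, against 53.4% of all.

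Most fate regulators were low at the start, as was Sox9. Of their 14 start windows 13 read below 20%, against 12 of 24 for other astrocyte genes and 59.9% of all start windows. The lowest was Zbtb20 at 1.15%, and the exception was Nfia at 91.2%. The other astrocyte genes ran from 2.18% in Vim to 95.6% in Mlc1, with a median of 19.1%, and the 10 members had a median of 28.8%. For comparison, the highest microglial start window was that of Csf1r at 90.9%, and striatal neuron ones ran from 2.43% in Pde10a to 15.7% in Drd2. Oligodendrocyte start windows ran from 3.05% in Olig2 to 83.0% in Mog, neuron ones from 1.51% in Snap25 to 84.9% in Rbfox3 and cortical neuron ones from 2.58% in Rorb to 68.0% in Neurod6.

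Across the 9 libraries most pairs of members were positively correlated, and the median over bodies was below 0 without Susceptible 7. Pearson's r was positive for 42 of 45 pairs at start windows (median 0.433) and 35 of 45 over bodies (median 0.618). Over all pairs of genes the medians were 0.011 and 0.110, and 50.9 and 59.5% of pairs were positive. Without Susceptible 7 the medians for the members were 0.286 and -0.028, and 31 and 20 pairs were positive. All pairs of genes then had medians of 0.003 and 0.053, with 50.2 and 54.2% positive. Without Control 5 and Control 8 the medians for the members were 0.511 and 0.677, and with CpGs listed in all 9 libraries 0.440 and 0.408. With the autosomal level of each library subtracted they were 0.262 and 0.497, with 32 and 30 positive pairs, where the same series is taken from every gene, also from those that vary less than it does. Without the 2 libraries farthest from the median of the first gene of each pair they were 0.095 and -0.011, a trimming that narrows the range of each gene and was not applied to all pairs of genes. In a family of 110 relations, which also holds each gene against the autosomal level, 0 pairs passed by r after adjustment. For 11 start window and 14 body pairs the unadjusted exact permutation p was under 0.05. The share of all gene pairs with such a p was not counted.

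**Figure D5:**
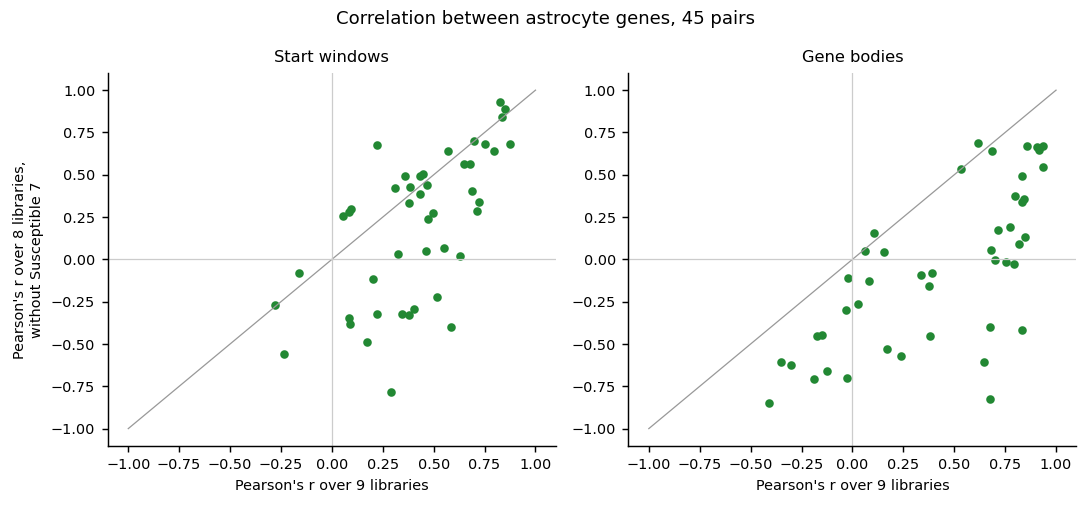
Pearson's r of 45 gene pairs over 9 libraries (horizontal) against the same r over 8 libraries without Susceptible 7 (vertical), at start windows (left) and over bodies (right). The body pairs fall from a median of 0.618 to -0.028, and the start window pairs from 0.433 to 0.286.

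Of the 5 pairs with the largest r, 3 held Slc1a2 and 2 held Aqp4. Over bodies, Slc1a2 and Glul had r = 0.935 (exact permutation p 0.0098, adjusted 0.132) but rho = 0.483 (exact permutation p 0.194, adjusted 0.627). That r was 0.544 without Susceptible 7 alone. It was 0.020 without Control 4 and Susceptible 7, a trimming that narrows the range. Aldoc and Slc1a2 bodies had r = 0.934 (exact permutation p 0.0042, adjusted 0.0723) and rho = 0.867 (exact permutation p 0.0045, adjusted 0.104), and r was 0.734 without Control 3 and Susceptible 7. For the Aqp4 and Glul bodies r was 0.918 and rho 0.867 (exact permutation p 0.0036 and 0.0045, adjusted 0.0723 and 0.104), and r was 0.472 without Control 3 and Susceptible 7. For S100b and Slc1a2 bodies r was 0.905 and rho 0.667 (exact permutation p 0.0038 and 0.0589, adjusted 0.0723 and 0.463), with 0.490 for r without Susceptible 6 and Susceptible 7. At start windows Gfap and Aqp4 had r = 0.875 and rho = 0.762 (exact permutation p 0.0026 and 0.0219, adjusted 0.0723 and 0.301). That r was 0.556 without Control 5 and Susceptible 7, and 0.283 when only CpGs listed in all 9 libraries were used.

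One pair passed by rank, where the p-values of rho were adjusted separately from those of r. No adjustment over both together was made. The start windows of Gfap, a methylated start, and Sox9, a nearly unmethylated one, had rho = 0.95 (exact permutation p 0.000353, adjusted 0.0388) and r = 0.827 (exact permutation p 0.0046, adjusted 0.0723). That r was 0.900 without Control 5 and Susceptible 7, 0.929 without Susceptible 7 alone, 0.725 without Control 5 and Control 8, and 0.721 with CpGs listed in all 9 libraries. It was 0.006 with the autosomal level subtracted, a series that spans more points than the Sox9 values do. The Sox9 values spanned only 1.85 to 3.96%, so the order of libraries rests on differences of few points. Over bodies, Gja1 and Sox9 each had 4 positive pairs of 9, with r up to 0.535 for Gja1 and 0.618 for Sox9.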

How the data were processed

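CpG methylation was read from 9 libraries of nucleus accumbens DNA made with a low-input bisulfite kit, per the labels' protocols. The submitters' processing notes name Bismark, Bowtie, Picard and the build mm10, without versions or order. Per the file headers, the deposited tables give for each cytosine of a CpG the count of calls (coverage) and the percent of them that read C or T. Every deposited cytosine had at least 10 calls, so the 13446563 to 22631489 cytosines per library are those that passed that minimum. Control 5 and Control 8 held 4 and 8 repeated entries, of which the first was kept, and unplaced scaffolds were left out.

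Methylated calls were the count times the percent of C, rounded to a whole number, which gave back the deposited percent to within 0.0051 percentage points at every cytosine. The strands of a CpG were added, and a level is methylated over all calls. Gene bounds and promoter sequences came from RefSeq (GRCm38.p6, the same assembly as mm10), and each of the 55 CGs in the promoter sequences of the 8 genes was a listed CpG. Strand came from the promoter table for 17273 genes and was set to the CpG-richer end for 4354, Aqp4 and Sox9 among them. In genes of known strand the start is the CpG-richer end in 79.5%, so some of these starts may be gene ends. Exons and introns were not used here.

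Start windows, bodies and 1-kb tiles entered the test where every library had 3 or more CpGs and 20 or more calls. The group test was a logistic model with quasi-binomial errors, whose dispersion was shrunk as in limma's squeezeVar (limma 3.58.1) and kept at 1 or more, and p-values were adjusted by Benjamini-Hochberg over all features, two-sided, threshold 0.05. This model weighs libraries by their calls, whereas the printed differences and their SE come from library levels with equal weight. Single differences also had a two-sided exact permutation test over libraries, on equally weighted levels, and correlations an exact permutation of pairings. The tests were run on simulated data and compared with limma first. Python 3.11.15, numpy 2.4.6 and scipy 1.17.1 were used. Alternatives changed the call minimum, the CpGs, the window, the scaling, the model and the libraries.

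The rule for named items takes all 10 members, up to 3 tiles of smallest p per member, the 5 other list genes of smallest p with the extremes of each list, and the 5 pairs of largest r; the rank-correlated pair of Gfap and Sox9 was named after its value was seen. A gene that the rule names is not reported here. The members and lists were chosen with earlier results of these data known.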

Additional observations from a re-analysis of the deposited data

Results flagged for a closer look

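In 60 groups of 4 or 5 libraries (start window, body and lowest tile of 10 genes), 6 held a library whose gap to its nearest neighbour was large against the range of its group. Chance flags about 1 in 20 groups. Susceptible 7 was that library in 5. It read 70.9% over the Aldoc body where the next Susceptible library read 84.3%, 72.4% over the Slc1a2 body (next 81.1%), 77.8% over the Slc1a3 body (next 84.1%), 57.0% over the Glul body (next 69.8%) and 18.8% at the Gja1 start window (next 30.7%). The other was Control 5 in the lowest tile of Aldoc, at 65.0% where the next Control library read 24.7%. These 5 groups of Susceptible 7 share 1 library and are not separate observations.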

How the results depend on the processing

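Of 512 differences of members under other settings, 0 passed an adjusted p of 0.05 (smallest 0.747) and 67 changed sign. With same-numbered libraries as a replicate block, members lower in Susceptible became 2 at start windows (9 without the block) and 5 over bodies (10 without it), and differences turned to 0.21 (Aldoc), 8.63 (S100b), 0.82 (Gfap), 4.97 (Aqp4), 2.81 (Slc1a2), 0.86 (Aldh1l1) and 0.0055 (Sox9) at start windows, 3.88 (Aldoc), 1.40 (S100b), 0.80 (Slc1a2), 1.17 (Slc1a3) and 1.1 (Aldh1l1) over bodies, and 1.88 (Aldoc), 0.95 (Gfap), 0.71 (Slc1a2), 0.51 (Gja1), 1.60 (Aldh1l1) and -0.44 (Sox9) in lowest tiles. The block compares only the libraries numbered 2 and 3. Their start window deviations from the group means correlated at 0.012 and -0.012, against -0.051 to 0.098 for other pairs. Such values cannot show whether same-numbered libraries were handled together, so neither reading of the number is settled here.

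Without Control 5 and Control 8, signs turned for the start windows of S100b (1.35), Aqp4 (1.52) and Slc1a2 (0.80), the bodies of S100b (0.26) and Aldh1l1 (0.28) and the lowest tiles of Slc1a2 (0.64) and Sox9 (-0.65). Subtracting the autosomal level adds the same amount to every difference, so those just under 0 turned by construction: the Sox9 start window (0.17), the bodies of Aldoc (0.39), S100b (0.49) and Aldh1l1 (0.40) and the lowest tiles of Slc1a2 (0.57) and Gja1 (0.37). With CpGs listed in all libraries they turned for the bodies of Aldoc (0.23), S100b (1.96) and Aqp4 (0.76) and the lowest tile of Slc1a3 (0.90). With those weighted equally they turned for the start windows of Slc1a3 (1.5) and Gja1 (1.24) and the bodies of Aldoc (0.47), S100b (2.54) and Gja1 (0.83). With at least 20 calls per CpG they turned for the S100b body (0.25) and the Slc1a2 lowest tile (0.29), and with 500 bp on each side for the Sox9 start window (0.22).

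Leaving out 1 library at a time gave ranges across 0 for the start windows of S100b (-7.22 to 0.56), Aqp4 (-5.92 to 1.05), Gja1 (-4.84 to 0.95) and Glul (-0.20 to 0.48), the bodies of Aldoc (-1.66 to 3.25), S100b (-1.17 to 1.94), Aqp4 (-1.64 to 0.38), Slc1a2 (-1.90 to 1.20), Aldh1l1 (-0.91 to 1.24) and Glul (-3.73 to 0.90), and the lowest tiles of Slc1a2 (-0.32 to 0.58), Glul (-0.042 to 0.29) and Sox9 (-0.16 to 0.83). Members with lower bodies numbered 4 to 10, the median body correlation was -0.028 to 0.653, the first of each without Susceptible 7, and called tiles numbered 0 to 1, with 1 without Control 4. The count of lower members and the correlations without single libraries were chosen after seeing the data. The cause was not tested. The S100b lowest tile, the Gfap and Sox9 bodies and the Aqp4 lowest tile kept their sign under every setting run.

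Counts at an unadjusted p under 0.05 moved by over 1.5 times for bodies without Susceptible 7 (1181 against 761), and for tiles without Susceptible 6 (29685 against 45605) and with at least 20 calls per CpG (23643), where the fewer tiles tested (541443) kept the share at 4.37%, against 4.38%. The start windows of the 500-bp setting were fewer (17735 tested), and the start window of Aqp4 rests on 66 to 109 calls per library.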
